A study of Homo sapiens with 12 samples.

Results

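A set of 10 matrix genes that encode no collagen was followed across the groups of a study that used WI-38, a human lung fibroblast line of embryonic origin. They were chosen by symbol in the deposited expression table: FN1, TNC, THBS1, SPARC, POSTN, FBN1, ELN, FBLN5, LOX and LOXL2. All 10 of 10 symbols were present among the 13937 genes of the table, and all 10 passed the filter on low values. The cells were transfected with small interfering RNAs (siRNAs), and messenger RNA was sequenced from its 3' end, which gives about one fragment per transcript.

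The 12 libraries formed 6 groups of 2. The cGAS_YT group received siRNAs targeting cGAS, a sensor of DNA in the cytosol, together with siRNAs against YAP and TAZ, the transcriptional coactivators that the Hippo pathway restrains. The STING_YT group received siRNAs against STING, the adaptor that acts downstream of cGAS, together with the YAP and TAZ siRNAs. The YT group received the YAP and TAZ siRNAs with the control siRNA siAS. The cGAS and STING groups received their siRNA with siAS, and the control group received siAS in both positions. All groups share 1 cell line, the culture medium and lipid transfection, and no time after transfection is given in the sources used here. Nothing in the labels says that libraries of a group came from separate cultures, so each p-value reflects spread between libraries that may be technical only.

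The extracellular matrix of fibroblasts is assembled outside the cell in layers. Fibronectin fibrils form first and guide other proteins, and matricellular proteins such as thrombospondin-1, tenascin-C, SPARC and periostin sit in the matrix and tune adhesion and growth factor signals. Fibrillin microfibrils carry elastin, which fibulin-5 helps to deposit, and the lysyl oxidases LOX and LOXL2 oxidise lysines so that elastin and collagen chains become crosslinked. YAP and TAZ bind DNA through TEAD factors and are known to respond to the stiffness of this matrix.

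The libraries held 17790774 to 20650727 reads, and at least 611 reads stood behind every value of the 10 genes. Reads of WWTR1, which encodes TAZ, were at 19.2% of the cGAS group in cGAS_YT cells, 12.02% of the STING group in STING_YT cells and 14.2% of control in YT cells. YAP1 was at 24.8%, 16.2% and 13.4% in the same 3 comparisons. MB21D1, which encodes cGAS, was at 23.6% of control in cGAS cells, and TMEM173, which encodes STING, at 7.39% in STING cells. Without the YAP and TAZ siRNAs, WWTR1 was at 68.9% of control in cGAS cells and 72.4% in STING cells. YAP1 was at 85.2% and 80.8% of control in these 2 groups. MB21D1 was also at 64.4% of control in STING cells, and TMEM173 at 121% in cGAS cells. MB21D1 was low and uneven, at 9.60 and 6.14 CPM in control cells and 5.46 and 4.67 CPM in STING cells. By the calling rule given below, 2 of the 4 targeted genes were lower and 2 not called in cGAS against control cells (14.3% of all genes lower). The counts were the same in STING against control cells (8.86%). The part of these shifts in the comparisons between backgrounds was not tested. All 8 of 8 fibroblast markers were in the table, none of 4 epithelial and none of 4 endothelial markers were among the genes analysed, and 1 of 4 leukocyte markers was (CD14, at most 1.14 CPM). The share of mitochondrial reads lay between 2.70% in control replicate 2 and 5.40% in STING_YT replicate 15.

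The genes differed in which siRNAs moved them. LOX fell with the YAP and TAZ siRNAs in each background. THBS1 fell in YT against control and in STING_YT against STING cells, but not in cGAS_YT against cGAS cells (0.01 ± 0.10). FBN1, ELN, POSTN and FBLN5 were higher with the cGAS siRNAs, and ELN was lower with the STING siRNAs. THBS1, TNC, FN1, SPARC and FBLN5 had their lowest group mean in YT cells, though SPARC and FBLN5 were not called there against control. A gene was called higher or lower where limma gave a Benjamini-Hochberg adjusted p under 0.05 over 13894 genes, and differences are in log2(CPM + 1), with the standard error of the fit.

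**Figure D1:**
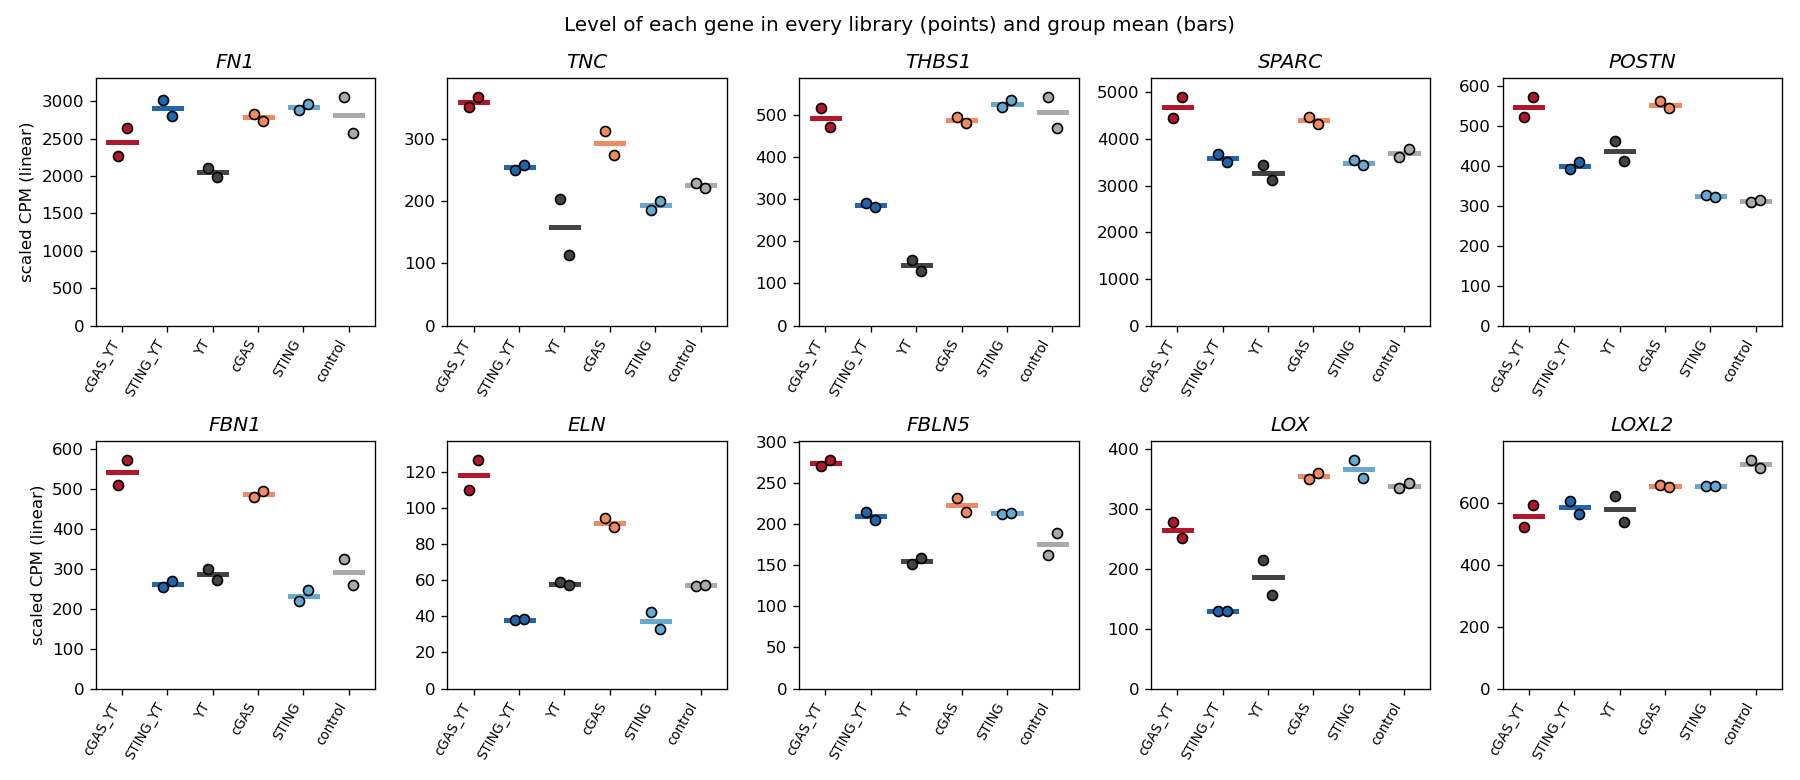
Scaled CPM of the 10 genes in each of the 12 libraries (points) with the mean of the 2 libraries of each group (bars), on linear axes that start at 0. THBS1 was lowest in the YT libraries (129 and 157 CPM), and ELN was highest in the cGAS_YT libraries (110 and 127 CPM) and lowest in the STING and STING_YT libraries.

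Levels are scaled CPM, a gene's reads relative to the read total of the library times a scaling factor. This factor ran from 0.9695 in control replicate 1 to 1.025 in cGAS_YT replicate 9. Levels are not divided by length because the 3' end of each transcript is counted. On this scale the mean over all libraries was highest for SPARC at 3856 CPM and FN1 at 2658 CPM and lowest for ELN at 66.9 CPM. The ratio of the highest to the lowest group mean was 3.69 for THBS1, 3.14 for ELN, 2.82 for LOX, 2.33 for FBN1 and 2.28 for TNC. It was 1.77 for POSTN, 1.76 for FBLN5, 1.43 for SPARC, 1.42 for FN1 and 1.30 for LOXL2. In bulk libraries, fewer cells that express a gene and less RNA per cell cannot be told apart.

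The counts of called genes among the 10 are given beside the share of all genes called the same way. In YT cells against control, 5 of 10 were lower (20.9% of all genes tested) and 1 was higher (20.6%). In cGAS_YT cells against cGAS cells, 1 was lower (12.7%) and 2 were higher (15%), and in STING_YT against STING cells 2 were lower (19.8%) and 1 was higher (19.1%). These 3 comparisons share no library with each other. In the cGAS background 0 were called without cGAS replicate 8, 1 without cGAS_YT replicate 10 and 5 without either YT library, which enters through the shared spread.

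The next 4 comparisons reuse libraries of those 3, among them the control and YT libraries, so their values stand side by side and are no separate evidence. In cGAS_YT cells against YT cells, 8 of 10 were higher (20.5% of all genes) and 0 were lower (20.2%). FN1 and LOXL2 were the exceptions, at 0.26 ± 0.11 (adjusted p = 0.0675) and -0.06 ± 0.09 (adjusted p = 0.644). The FN1 difference was called by edgeR (adjusted p = 0.0437) and DESeq2 (adjusted p = 0.0319) and without either control library, YT replicate 3 or cGAS_YT replicate 9, and was 0.15 without cGAS_YT replicate 10 (adjusted p = 0.394). In STING_YT cells against YT cells, 4 were higher (16%) and 2 were lower (18%). In cGAS cells against control, 4 were higher (11.1%) and 0 lower (14.3%), and in STING cells against control 1 was higher (6.14%) and 1 lower (8.86%). In STING against control cells 4 were called without either YT library, 0 without STING replicate 14 and 1 without any of control replicate 1, STING replicate 13 or a cGAS or STING_YT library.

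Whether the effect of the YAP and TAZ siRNAs differed with and without the second siRNA was tested by interaction terms. Effects keep their sign, so a higher effect is a smaller fall, a larger rise or a rise in place of a fall. With the cGAS siRNAs the effect was higher for 3 genes (7.5% of all genes) and lower for 1 (5.93%). With the STING siRNAs it was higher for 2 (3.35%) and lower for 1 (4.53%). Between the cGAS and the STING backgrounds directly, a contrast that uses no control library and was added after the data had been seen, it was higher for 2 (3.53%) and lower for 0 (1.64%). Counts of this size turned on single libraries: 1 gene was called in the STING interaction without control replicate 1 or any STING or STING_YT library, and 2 in the cGAS interaction without control replicate 2, cGAS replicate 8 or cGAS_YT replicate 10.

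**Figure D2:**
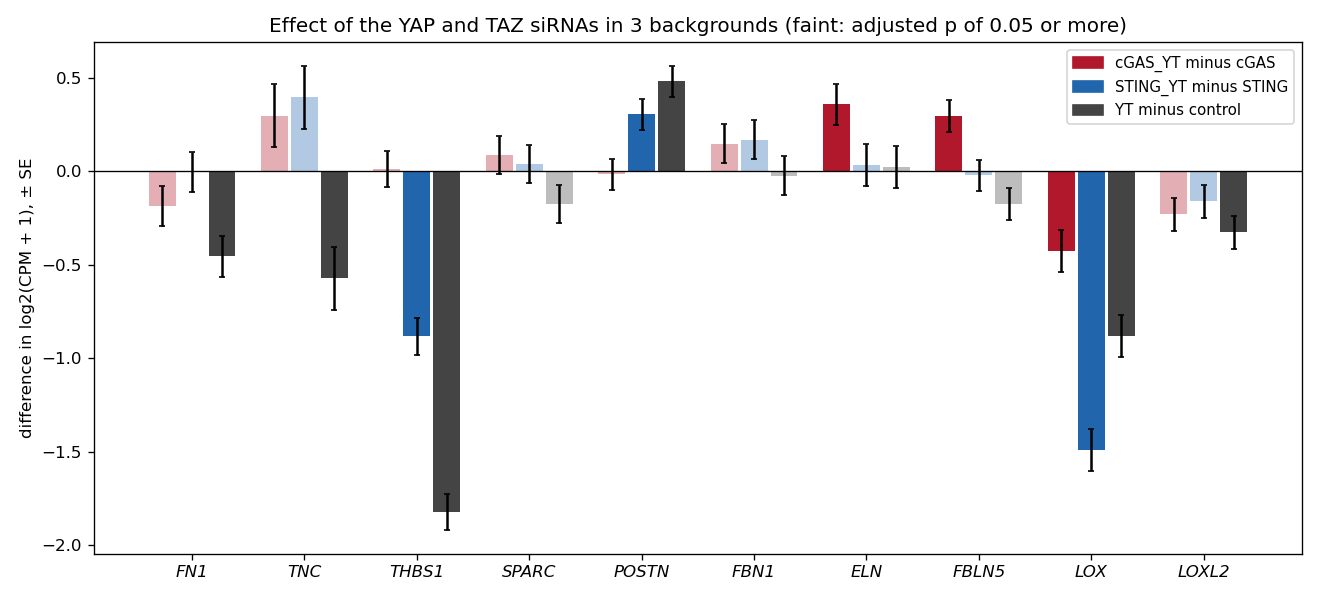
Difference in log2(CPM + 1) made by the YAP and TAZ siRNAs with the cGAS siRNAs, with the STING siRNAs and with the control siRNA alone, for the 10 genes. Bars are limma estimates with their standard errors, and faint bars have an adjusted p of 0.05 or more. THBS1 was at -1.82 in YT against control cells and 0.01 in cGAS_YT against cGAS cells, and LOX was below 0 in all 3.

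THBS1 encodes thrombospondin-1, a matricellular protein that binds cell surface receptors and can activate latent TGF-beta. Its upstream sequence is shown because TEAD factors, the DNA-binding partners of YAP and TAZ, are known to bind motifs with the letters GGAATG, and that of LOX because LOX also fell. The table of RefSeq promoters (GRCh38.p14) held 8 of the 10 genes, all but ELN and LOXL2. Both strands of the 250 bases before the start were searched for GGAATG and, as a motif of AP-1 factors, for TGANTCA. THBS1 is shown at chr15:39580829-39581078 on the plus strand, and LOX at chr5:122078361-122078509 on the minus strand, from the furthest 5′ of 3 listed starts and without the stretch that GENCODE places in the gene. For FBN1 (chr15:48645011-48645040) and SPARC (chr5:151686916-151686945), both on the minus strand, only the 30 bases around the match are given. These 2 stretches lie before the start that RefSeq lists but inside the gene as GENCODE annotates it. Capitals mark GGAATG or its reverse complement.
THBS1: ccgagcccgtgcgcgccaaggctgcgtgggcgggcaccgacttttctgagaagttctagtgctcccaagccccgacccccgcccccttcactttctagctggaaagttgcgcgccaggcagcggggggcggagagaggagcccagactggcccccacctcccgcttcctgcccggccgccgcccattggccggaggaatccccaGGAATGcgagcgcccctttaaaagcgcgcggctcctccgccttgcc
LOX: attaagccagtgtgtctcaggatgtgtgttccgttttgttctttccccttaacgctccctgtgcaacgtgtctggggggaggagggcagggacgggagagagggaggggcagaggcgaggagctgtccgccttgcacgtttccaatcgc
FBN1: gggttgggcttgGGAATGgggaccgcgagg
SPARC: ctaaacccctccaCATTCCcgcggtccttc
The match began 46 bases before the RefSeq start in THBS1 and 58 bases before it in FBN1, and in SPARC it lay on the other strand with its first base 17 bases before it. The letters GGAATG occurred in 11.9% of 35116 promoters of this length, and TGANTCA occurred in 6.57% and, of the 8 genes, in POSTN alone. Of the 3 genes with a GGAATG match, THBS1 was called lower in YT against control cells, at -1.82. FBN1 (-0.02) and SPARC (-0.18) were not called there. LOX, TNC and FN1, also called lower there, had no GGAATG match, and LOXL2, called lower too, was not searched. Whether a match goes with a response to the YAP and TAZ siRNAs was not tested. A match is a string of letters and no measured binding.

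THBS1 (chr15:39581079-39599466, plus strand, GENCODE on GRCh38) had 516 and 471 CPM in cGAS_YT cells, 290 and 280 CPM in STING_YT cells and 157 and 129 CPM in YT cells. Without the YAP and TAZ siRNAs it had 495 and 482 CPM in cGAS cells, 519 and 535 CPM in STING cells and 543 and 470 CPM in control cells. The YT and STING_YT libraries were below every other library and did not overlap with each other, while the cGAS_YT libraries lay among those without YAP and TAZ siRNAs. THBS1 was 1.82 ± 0.10 lower on the log2 scale in YT against control cells (adjusted p = 5.0e-10). The difference was -0.88 ± 0.10 in STING_YT against STING cells (adjusted p = 2.2e-06). Between cGAS_YT and cGAS cells it was 0.01 ± 0.10, with a 95% interval of -0.19 to 0.22 (adjusted p = 0.936).

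The 3 effects on THBS1 differed from each other when tested. The effect of the YAP and TAZ siRNAs was 1.84 ± 0.14 higher with the cGAS siRNAs than without (adjusted p = 2.0e-07) and 0.94 ± 0.14 higher with the STING siRNAs than without (adjusted p = 3.8e-04). It was 0.90 ± 0.14 higher in the cGAS than in the STING background (adjusted p = 0.00129). All 3 stayed called in each of the 21 alternative settings. The cGAS siRNAs alone gave -0.05 ± 0.10 against control (adjusted p = 0.767) and the STING siRNAs alone 0.06 ± 0.10 (adjusted p = 0.745). YAP1 was left at 24.8% in cGAS_YT cells relative to cGAS cells, against 13.4% in YT cells relative to control, and the part of this gap in the THBS1 result was not tested. Of 4 smooth muscle markers 3 were in the table (MYH11, SMTN and ACTG2, with DES not analysed here), and their summed CPM, most of it ACTG2, was also lowest in YT and STING_YT cells. The sum was at 555 to 557 in cGAS_YT cells, 282 to 312 in STING_YT cells, 174 to 182 in YT cells, 533 to 560 in cGAS cells, 340 to 351 in STING cells and 408 to 466 in control cells. SMTN differed from THBS1 in being lower in STING_YT cells (9.27 to 9.40 CPM) than in YT cells (19.0 to 19.9 CPM). Of the 3 markers, 1 was called lower and 2 were not called in YT against control cells (20.9% of all genes lower). The counts were the same in STING_YT against STING cells (19.8%). All 3 were higher in cGAS_YT against YT cells (20.5% of all genes higher), as THBS1 was. All 3 were also higher in cGAS against control cells (11.1%), where THBS1 was not called. The part of these markers in the THBS1 result was not tested.

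TNC encodes tenascin-C, an adhesion-modulating glycoprotein made in injured and developing tissue. TNC (chr9:115019578-115118257, minus strand) had 352 and 367 CPM in cGAS_YT cells, 250.3 and 258 CPM in STING_YT cells and 203 and 113 CPM in YT cells. In cells without the YAP and TAZ siRNAs, it had 312 and 274 CPM in cGAS cells, 186 and 199.6 CPM in STING cells and 229.6 and 221 CPM in control cells. The 2 YT libraries were far apart, with replicate 4 the lowest of all 12. TNC was 0.57 ± 0.17 lower in YT than in control cells (adjusted p = 0.0125), but without YT replicate 4 the difference was -0.15 and no longer called (adjusted p = 0.188), and without YT replicate 3 it was -0.99. The call was also lost without control replicate 1 (adjusted p = 0.0700), without control replicate 2 (adjusted p = 0.0538) and with DESeq2 (adjusted p = 0.0839).

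With a second siRNA present the YAP and TAZ siRNAs gave differences in the other direction, 0.30 ± 0.17 in cGAS_YT against cGAS cells (adjusted p = 0.215) and 0.40 ± 0.17 in STING_YT against STING cells (adjusted p = 0.0738), which were called without either YT library. The excess of TNC in cGAS_YT over YT cells, 1.24 ± 0.17 (adjusted p = 2.1e-05), stayed called in every setting tried, at 0.82 without YT replicate 4. In STING_YT against YT cells TNC was 0.74 ± 0.17 higher (adjusted p = 0.00275), and 0.32 higher without YT replicate 4. The effect of the YAP and TAZ siRNAs on TNC was 0.87 ± 0.24 higher with the cGAS siRNAs than without (adjusted p = 0.0225) and 0.97 ± 0.24 higher with the STING siRNAs than without (adjusted p = 0.0188). Without YT replicate 4 these were 0.45 and 0.55, both called. Both were lost without either control library and with DESeq2, the first also without cGAS replicate 8 or either cGAS_YT library and the second also without any 1 of the STING or STING_YT libraries.

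FN1 encodes fibronectin, the fibril-forming glycoprotein that cells bind through integrins. FN1 (chr2:215360440-215436172, minus strand) had 2270.1 and 2646 CPM in cGAS_YT cells, 3021 and 2808 CPM in STING_YT cells and 2112 and 1990.3 CPM in YT cells. Without the YAP and TAZ siRNAs it had 2825 and 2740.0 CPM in cGAS cells, 2880.4 and 2962 CPM in STING cells and 3060.3 and 2582 CPM in control cells. The YT libraries were the lowest and did not overlap with any other group. FN1 was 0.45 ± 0.11 lower in YT than in control cells (adjusted p = 0.00290), against -0.18 ± 0.11 in cGAS_YT relative to cGAS cells (adjusted p = 0.235) and -0.0043 ± 0.11 in STING_YT relative to STING cells (adjusted p = 0.981). The tests of whether these effects differ missed the threshold, at 0.27 ± 0.15 for cGAS (adjusted p = 0.268) and 0.45 ± 0.15 for STING (adjusted p = 0.0853), so a difference between backgrounds was not shown for FN1. The difference for STING was called by DESeq2 (adjusted p = 0.0258), and also without control replicate 2 or YT replicate 3.

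SPARC encodes a collagen-binding matricellular glycoprotein and was the most abundant of the 10. SPARC (chr5:151661096-151687165, minus strand) had 4455 and 4902 CPM in cGAS_YT cells, 3683 and 3501 CPM in STING_YT cells and 3437 and 3115 CPM in YT cells. It had 4469 and 4325 CPM in cGAS cells, 3554 and 3430.5 CPM in STING cells and 3620.2 and 3776 CPM in control cells. The 4 libraries with cGAS siRNAs were above the other 8. SPARC was called in a single comparison, 0.51 ± 0.10 higher in cGAS_YT than in YT cells (adjusted p = 7.1e-04). In cGAS against control cells the difference was 0.25 ± 0.10 and missed the threshold (adjusted p = 0.0828), though edgeR and DESeq2 on the recovered reads called it.

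POSTN encodes periostin, which binds fibronectin, tenascin-C and collagen and is induced in wound fibroblasts. POSTN (chr13:37562583-37598844, minus strand) had 522 and 573 CPM in cGAS_YT cells, 392 and 408 CPM in STING_YT cells and 462 and 411 CPM in YT cells. It had 561 and 545 CPM in cGAS cells, 326 and 321 CPM in STING cells and 308 and 315 CPM in control cells. It was the only 1 of the 10 called higher in YT than in control cells, by 0.48 ± 0.08 (adjusted p = 1.6e-04). It was 0.33 ± 0.08 higher in cGAS_YT than in YT cells (adjusted p = 0.00405). This call was lost without cGAS_YT replicate 10 and when only the groups compared were fitted (adjusted p = 0.0720). It was 0.82 ± 0.08 higher in cGAS than in control cells (adjusted p = 1.8e-06), and in STING against control cells the difference was 0.05 ± 0.08 (adjusted p = 0.734). The 2 cGAS_YT libraries lay on either side of the 2 cGAS libraries, and the effect of the YAP and TAZ siRNAs was 0.50 ± 0.11 lower with the cGAS siRNAs than without (adjusted p = 0.00781), a call lost with a constant prior (adjusted p = 0.0515). In STING_YT against STING cells POSTN was 0.31 ± 0.08 higher (adjusted p = 0.00673), a call lost without STING_YT replicate 16.

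FBN1 encodes fibrillin-1, the main protein of microfibrils. FBN1 (chr15:48408306-48645849, minus strand) had 512 and 574 CPM in cGAS_YT cells, 255 and 269.7 CPM in STING_YT cells and 301 and 272 CPM in YT cells. It had 481 and 496 CPM in cGAS cells, 220.0 and 247 CPM in STING cells and 326 and 259 CPM in control cells. The lowest of the 4 libraries with cGAS siRNAs had 481 CPM and the highest of the other 8 had 326 CPM. FBN1 was 0.92 ± 0.10 higher in cGAS_YT than in YT cells (adjusted p = 2.9e-06) and 0.75 ± 0.10 higher in cGAS than in control cells (adjusted p = 5.9e-05). The YAP and TAZ siRNAs gave -0.02 ± 0.10 against control, with a 95% interval of -0.24 to 0.20. In STING against control cells the difference was -0.32 ± 0.10 and missed the threshold (adjusted p = 0.0503). It was called by DESeq2 (adjusted p = 0.0354), with the filter of 5 CPM (adjusted p = 0.0481), when only the groups compared were fitted, without either YT library and, at -0.48, without control replicate 2. It was -0.15 without control replicate 1 (adjusted p = 0.451).

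ELN encodes tropoelastin, the soluble monomer of elastin. ELN (chr7:74027789-74069907, plus strand) had 110 and 127 CPM in cGAS_YT cells, 37.8 and 38.7 CPM in STING_YT cells and 58.9 and 57.3 CPM in YT cells. It had 94.3 and 89.4 CPM in cGAS cells, 42.5 and 32.8 CPM in STING cells and 57.0 and 57.2 CPM in control cells. ELN split the libraries into 3 levels that did not overlap, high with cGAS siRNAs, low with STING siRNAs and between them with neither. It was 0.68 ± 0.11 higher in cGAS than in control cells (adjusted p = 3.0e-04) and 0.60 ± 0.11 lower in STING than in control cells (adjusted p = 0.00168). With the YAP and TAZ siRNAs in place it was 1.01 ± 0.11 higher in cGAS_YT than in YT cells (adjusted p = 2.3e-06) and 0.59 ± 0.11 lower in STING_YT than in YT cells (adjusted p = 6.8e-04). The fall with STING siRNAs alone was -0.42 without STING replicate 14 (adjusted p = 0.0501).

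The YAP and TAZ siRNAs alone gave a difference of 0.02 ± 0.11 for ELN, with a 95% interval of -0.21 to 0.26. In cGAS_YT against cGAS cells ELN was 0.36 ± 0.11 higher (adjusted p = 0.0246), a call lost without either cGAS library or without cGAS_YT replicate 10. The test of a difference between these effects missed the threshold at 0.33 ± 0.16 (adjusted p = 0.186). The fewest reads behind a value of the 10 genes were the 611 of ELN in STING replicate 14, with a counting error of 4.05%.

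FBLN5 encodes fibulin-5, which binds elastin and integrins during elastic fibre assembly. FBLN5 (chr14:91869412-91947987, minus strand) had 270.4 and 278 CPM in cGAS_YT cells, 215 and 204 CPM in STING_YT cells and 152 and 159 CPM in YT cells. It had 232 and 215 CPM in cGAS cells, 212 and 214 CPM in STING cells and 162 and 189.5 CPM in control cells. Every library with cGAS or STING siRNAs was above the 4 without. FBLN5 was 0.82 ± 0.09 higher in cGAS_YT than in YT cells (adjusted p = 1.2e-06) and 0.43 ± 0.09 higher in STING_YT than in YT cells (adjusted p = 9.8e-04). In YT against control cells the difference was -0.17 ± 0.09 (adjusted p = 0.119), at -0.28 and called without control replicate 1 and at -0.061 without control replicate 2 (adjusted p = 0.661). The smaller differences were less stable: 0.35 ± 0.09 in cGAS against control cells (adjusted p = 0.00661) was lost without control replicate 1 or cGAS replicate 7. The 0.28 ± 0.09 in STING against control cells (adjusted p = 0.0369) was lost without any 1 of control replicate 1 and the cGAS, STING and STING_YT libraries. In STING against control cells it was 0.17 without control replicate 1. FBLN5 was also 0.30 ± 0.09 higher in cGAS_YT than in cGAS cells (adjusted p = 0.0160), lost without cGAS replicate 8 or cGAS_YT replicate 10, and its cGAS interaction of 0.47 ± 0.12 (adjusted p = 0.0156) was lost without those libraries or control replicate 2.

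Beside these elastic fibre results, the summed CPM of the 8 fibroblast markers (3 of them collagens) was 19911 to 22616 in cGAS_YT cells, 31862 to 34496 in STING_YT cells, 25151 to 26346 in YT cells, 20822 to 21740 in cGAS cells, 28232 to 28341 in STING cells and 31068 to 31516 in control cells. The largest part of the sum was COL1A1, at a mean of 10248 CPM in cGAS cells and 18185 CPM in control cells. In cGAS against control cells 0 of the 8 rose and 4 fell (median -0.28), and in cGAS_YT against YT cells 3 rose and 2 fell (median 0.14). The part of these markers in the FBN1 and ELN results was not tested.

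**Figure D3:**
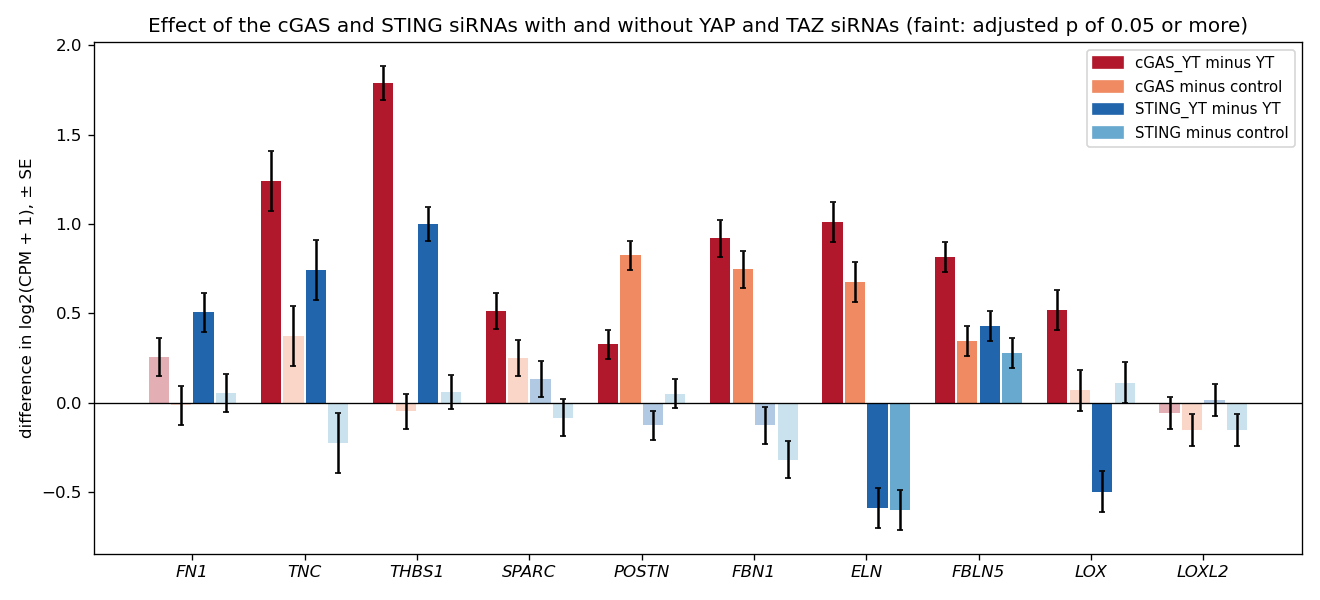
Difference in log2(CPM + 1) made by the cGAS siRNAs and by the STING siRNAs, each with the YAP and TAZ siRNAs (against YT cells) and without them (against control cells). Bars are limma estimates with standard errors, and faint bars have an adjusted p of 0.05 or more. FBN1 and ELN were above 0 with the cGAS siRNAs in both settings, and ELN was below 0 with the STING siRNAs in both.

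LOX encodes lysyl oxidase, which starts the crosslinking of elastin and collagen. LOX (chr5:122063195-122078360, minus strand) had 278 and 251 CPM in cGAS_YT cells, 130.3 and 129.7 CPM in STING_YT cells and 216 and 157 CPM in YT cells. It had 351 and 360.4 CPM in cGAS cells, 382 and 352 CPM in STING cells and 334 and 343 CPM in control cells. All 6 libraries with YAP and TAZ siRNAs were below the 6 without. LOX was 0.43 ± 0.11 lower in cGAS_YT than in cGAS cells (adjusted p = 0.00923), 1.49 ± 0.11 lower in STING_YT than in STING cells (adjusted p = 3.3e-08) and 0.88 ± 0.11 lower in YT than in control cells (adjusted p = 1.0e-05). The call in the cGAS background was lost without cGAS replicate 8 or cGAS_YT replicate 10.

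The direct test between the cGAS and STING backgrounds put the effect on LOX 1.06 ± 0.16 higher with the cGAS siRNAs (adjusted p = 0.00111), and it stayed called in all 21 alternatives. Against the effect without a second siRNA, the difference was 0.45 ± 0.16 for cGAS, which missed the threshold (adjusted p = 0.0732) and was 0.68 and called without YT replicate 3 but 0.22 without YT replicate 4 (adjusted p = 0.191). For STING it was -0.61 ± 0.16 (adjusted p = 0.0258), a call lost without any 1 of the control, STING or STING_YT libraries (adjusted p = 0.0524 to 0.126) and at -0.38 without YT replicate 3. LOX thus differed from THBS1 in order: with the YAP and TAZ siRNAs, LOX was lowest in STING_YT cells and THBS1 lowest in YT cells. LOX was 0.52 ± 0.11 higher in cGAS_YT than in YT cells (adjusted p = 0.00146), and 0.29 higher without YT replicate 4. It was 0.50 ± 0.11 lower in STING_YT than in YT cells (adjusted p = 0.00269), and -0.27 without YT replicate 3, where THBS1 was 1.0 ± 0.10 higher (adjusted p = 7.7e-07). In CPM, YAP1 was at 21.68 to 24.6 in cGAS_YT cells, 12.6 to 16.06 in STING_YT cells and 13.02 to 16.27 in YT cells. WWTR1 was at 17.9 to 18.78, 11.43 to 12.71 and 16.72 to 22.82 in the same groups. The YT libraries thus overlapped with STING_YT for YAP1 and with cGAS_YT for WWTR1. The percents left that are given above use a different reference group for each. The part of these residual levels in the LOX result was not tested.

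LOXL2 encodes a lysyl oxidase relative that acts on collagen IV, among other substrates. LOXL2 had 522 and 595 CPM in cGAS_YT cells, 606 and 566 CPM in STING_YT cells and 624 and 539 CPM in YT cells. It had 657 and 651 CPM in cGAS cells, 655 and 654 CPM in STING cells and 740.4 and 715 CPM in control cells. Every library with YAP and TAZ siRNAs was below every library without, but the gaps were small. LOXL2 was 0.33 ± 0.09 lower in YT than in control cells (adjusted p = 0.00792). The call was lost without YT replicate 4, at -0.22, and when only the groups compared were fitted (adjusted p = 0.0789). The difference was -0.23 ± 0.09 in cGAS_YT against cGAS cells (adjusted p = 0.0675) and -0.16 ± 0.09 in STING_YT against STING cells (adjusted p = 0.172), neither of them called. The first was called by DESeq2 (adjusted p = 0.0360) and with median-of-ratios scaling (adjusted p = 0.0472), but not by edgeR (adjusted p = 0.0735). Both were called when only the groups compared were fitted (adjusted p = 0.0319 and 0.0271). The interactions were 0.10 ± 0.13 for cGAS (adjusted p = 0.684) and 0.17 ± 0.13 for STING (adjusted p = 0.488). A difference between backgrounds was thus not shown for LOXL2.

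Other matrix genes were counted in 6 lists that exclude the 10. Of 17 crosslinking and collagen-processing genes, not all of which encode enzymes, 7 rose and 3 fell in YT against control cells. Their median was 0.17, against 0.0031 for all genes. Over all genes 20.6% rose and 20.9% fell in this comparison, so that the 3 that fell are near the share of all genes. LOXL1, another lysyl oxidase, had 424 to 430 CPM in cGAS_YT cells, 246 to 249 CPM in STING_YT cells, 151 to 162 CPM in YT cells, 389 to 392 CPM in cGAS cells, 303 to 339 CPM in STING cells and 262 to 278 CPM in control cells. Its difference was -0.78 in YT against control cells (adjusted p = 8.1e-07). This signed effect was 0.91 ± 0.11 higher, away from a fall, with the cGAS siRNAs than without (adjusted p = 3.6e-05). P4HA2, a collagen prolyl hydroxylase subunit, fell with the YAP and TAZ siRNAs in all 3 backgrounds, by 0.58 in cGAS_YT against cGAS cells (adjusted p = 6.3e-05), 0.93 in STING_YT against STING cells (adjusted p = 1.7e-07) and 1.06 in YT against control cells (adjusted p = 3.3e-08). TGM2, the crosslinking enzyme transglutaminase 2, rose in the same comparisons, by 0.99, 1.57 and 0.36 (adjusted p = 2.2e-07, 5.4e-10 and 0.00174). In STING against control cells 7 of the 17 fell and 1 rose, where 8.86% of all genes fell and 6.14% rose.

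Of 12 measured elastic fibre genes, 2 rose and 3 fell in YT against control cells, with a median of -0.06, near the shares of all genes (20.6% and 20.9%). In cGAS against control cells none rose and 5 fell (median -0.24), where 11.1% of all genes rose and 14.3% fell, and the other 7 were not called. EFEMP2, which encodes fibulin-4, fell by 0.42 there (adjusted p = 0.00389) and LTBP2, a latent TGF-beta binding protein of microfibrils, fell by 0.59 (adjusted p = 0.00319). In STING against control cells 0 rose and 5 fell (median -0.41), where 6.14% of all genes rose and 8.86% fell. Among the 5 was EMILIN1, an elastin-microfibril interface protein, which fell by 0.65 (adjusted p = 1.7e-04). With YAP and TAZ siRNAs in place, 2 rose and 3 fell in cGAS_YT against YT cells (20.5% and 20.2% of all genes), and 1 rose and 6 fell in STING_YT against YT cells (16% and 18%).

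Of 16 measured matricellular genes, 8 rose and 2 fell in YT against control cells (median 0.35), where 20.6% of all genes rose and 20.9% fell. The 2 that fell were CYR61 and CTGF, both known YAP and TAZ targets, by 3.52 and 2.68 (adjusted p = 1.1e-11 and 7.9e-10). CYR61 had 259 to 268 CPM in cGAS_YT cells, 137 to 139 CPM in STING_YT cells, 32.8 to 50.6 CPM in YT cells, 475 to 479 CPM in cGAS cells, 523 to 547 CPM in STING cells and 454 to 502 CPM in control cells. The effect on CYR61 was 2.66 ± 0.19 higher with the cGAS siRNAs than without (adjusted p = 1.2e-07), and CYR61 still fell by 0.86 in cGAS_YT against cGAS cells (adjusted p = 1.4e-04), where THBS1 was not called. THBS2, a relative of THBS1, rose by 0.49 in YT against control cells (adjusted p = 0.00202) and by 1.26 in cGAS against control cells (adjusted p = 5.1e-07).

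Among 14 measured basement membrane genes 5 rose and 3 fell in YT against control cells, among 12 proteoglycans 3 rose and 3 fell, and among 10 matrix receptors 5 rose and 2 fell. With 20.6% of all genes higher and 20.9% lower in this comparison, the counts of genes that fell in these 3 lists and of proteoglycans that rose are near the share of all genes. NTN4, a laminin-related protein, fell by 2.12 (adjusted p = 1.6e-08), and its cGAS interaction was 2.09 ± 0.22 (adjusted p = 6.5e-06). ITGA8, an integrin subunit whose ligands include fibronectin and tenascin-C, rose by 1.67 in YT against control cells (adjusted p = 5.6e-09) and fell by 1.86 in cGAS against control cells (adjusted p = 9.7e-09). SDC4, a syndecan that acts with integrins at fibronectin, fell by 1.25 in YT against control cells (adjusted p = 1.4e-08). In STING against control cells 6 of the 10 receptors fell and 1 rose, where 8.86% of all genes fell and 6.14% rose.

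**Figure D4:**
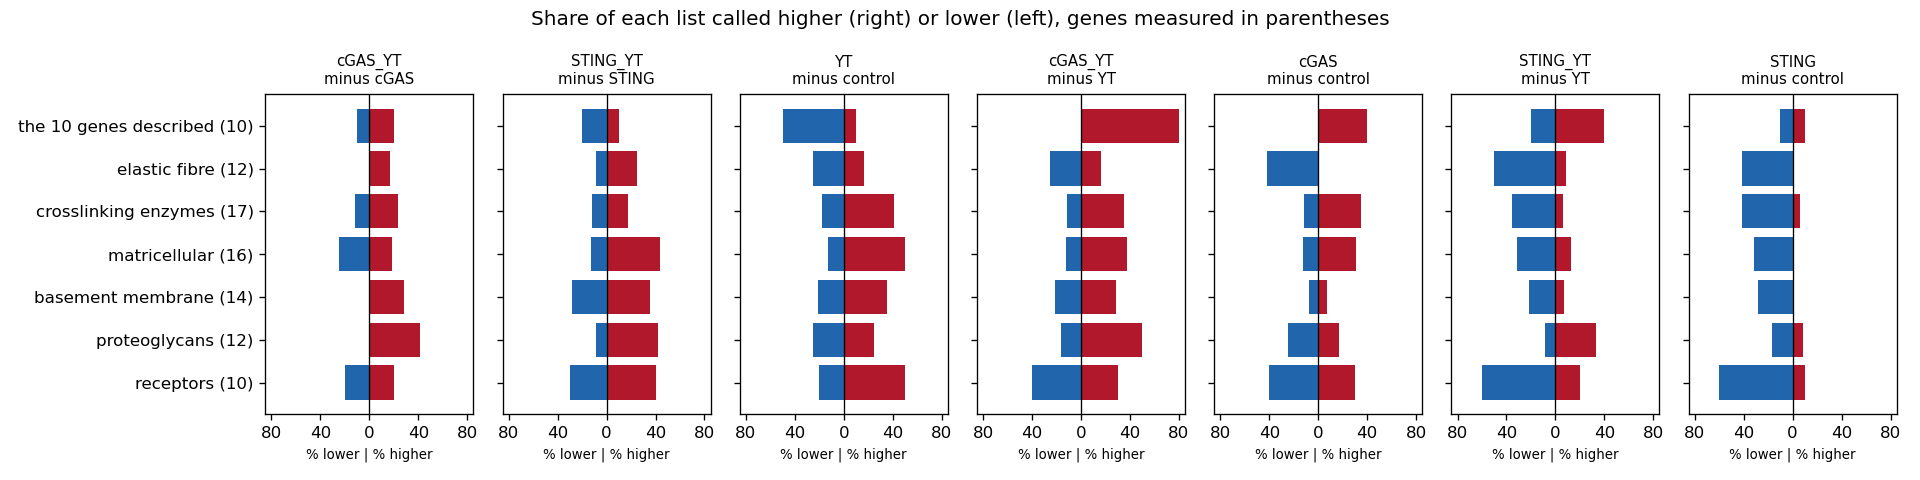
Percent of each list called higher (right, red) or lower (left, blue) in 7 comparisons, with the number of genes measured in parentheses. The 10 genes described reach 80% higher in cGAS_YT minus YT (8 of 10) and 50% lower in YT minus control (5 of 10), and the share lower in cGAS minus control is 0 of 10 for them and 5 of 12 for the other elastic fibre genes.

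As a description with no test, genes that averaged 20 CPM or more (6833 in all) were ranked by the Pearson's r of their log2 level with that of each of the 10 over the 12 libraries. These libraries share their groups, so a high r reflects the pattern over 6 groups. ELN was most like FADS2 (r = 0.986) and MSMO1 (r = 0.983), which encode enzymes of fatty acid desaturation and cholesterol synthesis. THBS1 was most like the hydrolase family gene MEST (r = 0.986), and LOX most like GALNT5 (r = 0.984), a glycosyltransferase gene. The nearest genes were KCNK6 for POSTN (r = 0.974), SNHG7 for SPARC (r = 0.970), CCDC186 for FBN1 (r = 0.969), MAPK7 for TNC and NDRG1 for FBLN5 (r = 0.952 for both), RPS29 for FN1 (r = 0.931) and SRSF1 for LOXL2 (r = 0.904). Among the 10 themselves the highest r was that of FBN1 with ELN at 0.937, followed by SPARC with FBN1 at 0.889 and SPARC with TNC at 0.887, while THBS1 and LOX had 0.733.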

How the data were processed

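Libraries of 3' ends of messenger RNA were made with a QuantSeq kit, per the labels' protocols. Per the submitters' processing notes the tools were STAR (2.5.3a), featureCounts and edgeR on hg38, with an annotation that was not given in the sources used here. In the file that the authors deposited stands 1 scaled CPM per gene and library, a signal scaled by the authors whose columns have unequal sums. All deposited signal values (100%) were whole multiples of 1 read within 0.01 reads, which gave back the reads. The design assumed CPM and was kept. Log2(CPM + 1) was fitted with limma 3.58.1 (R 4.3.3) over 12 libraries with an intensity trend, 6 residual and 10.1 prior degrees of freedom, on the 13894 genes that reached 1 CPM in 2 or more libraries. Adjustment was by Benjamini-Hochberg over these genes in each of 10 contrasts, 9 planned and 1 added, at a threshold of 0.05. A value of 3 reads is 0.142 to 0.170 CPM, for counting error only. Genes with close relatives or antisense partners could share reads. The scripts were tested on simulated counts. The 21 alternatives were a pseudocount of 0.25 or 4, no filter, a filter of 5 CPM, median-of-ratios scaling, a constant prior, only the groups compared, edgeR 4.0.16 (quasi-likelihood), DESeq2 1.42.0 and each library left out, which leaves a lone sample assumed to vary like the other groups. Named genes were the 10, the siRNA targets, for each list the 3 with the smallest p in YT minus control and the 2 in each other contrast, and 2 most alike genes per member; the text gives a selection, with some values of these genes in further contrasts. The 10 genes, the lists and the rules were chosen with earlier results of these data known.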

Additional observations from a re-analysis of the deposited data

Results flagged for a closer look

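The effect of the YAP and TAZ siRNAs differed between backgrounds for THBS1, LOX, TNC, FBLN5 and POSTN, each in at least 1 of 3 contrasts. Of these contrasts 1 was added after the data had been seen. The difference itself was tested by limma, on the log2(CPM + 1) scale with n = 2 libraries a group (adjusted p = 2.0e-07 to 0.0258). For THBS1 the effect was 1.84 higher with the cGAS siRNAs than without, 0.94 higher with the STING siRNAs than without, and 0.90 higher with the cGAS than with the STING siRNAs. For LOX it was 1.06 higher with the cGAS than with the STING siRNAs, and the difference was -0.61 with the STING siRNAs against without. For TNC it was 0.87 higher with the cGAS siRNAs and 0.97 higher with the STING siRNAs, each against without. For FBLN5 it was 0.47 higher with the cGAS siRNAs than without, and for POSTN the difference was -0.50. In the cGAS interaction 3 of the 10 genes were called higher (7.5% of all genes) and 1 lower (5.93%). In the STING interaction 2 were higher (3.35%) and 1 lower (4.53%). In the contrast of the cGAS and STING backgrounds 2 were higher (3.53%) and 0 lower (1.64%). The 3 results for THBS1 and that for LOX between the cGAS and STING backgrounds held under all 21 alternatives. Those for TNC, FBLN5 and POSTN and that for LOX with the STING siRNAs were each lost under at least 1, and a constant prior left 1 call among the 10 genes in each of the cGAS and STING interactions.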

How the results depend on the processing

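Of the 41 calls among 100 pairs of gene and comparison, 26 held under all 21 alternatives, and 0 turned direction. The matching shares over all genes were not worked out, and the comparisons share libraries, so these counts describe stability only. No paired analysis was possible because each replicate number in the labels occurs once. Fitting only the groups compared called 4 of the 10 genes in STING minus control, 5 in cGAS_YT minus cGAS, 6 in STING_YT minus STING, 2 in the cGAS interaction and 4 in the contrast of the cGAS and STING backgrounds. It lost the calls of TNC and LOXL2 in YT minus control and of POSTN in cGAS_YT minus YT. Those of TNC and FBLN5 in the cGAS interaction and of LOX in the STING interaction were lost too. A constant prior called 1, 0, 1 and 1 in STING minus control, cGAS_YT minus cGAS, the cGAS interaction and the STING interaction. It lost the calls of TNC in YT minus control and in both interactions, and of LOX in the STING interaction. In cGAS_YT minus cGAS those of ELN, LOX and FBLN5 were lost. Those of FBLN5 in STING minus control and of FBLN5 and POSTN in the cGAS interaction were lost too. Over all genes, fitting only the groups compared called 2885 in STING minus control (2084 as reported), 4556 in cGAS_YT minus cGAS (3848) and 6957 in STING_YT minus STING (5405). It called 1297 in the cGAS interaction (1866), 1770 in the contrast of backgrounds (718) and 3844 in YT minus control (5773). A constant prior called 1529 in STING minus control, 3379 in cGAS_YT minus cGAS and 1430 in the cGAS interaction over all genes. It called 703 in the STING interaction (1095) and 361 in the contrast of backgrounds.

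With each library left out, the 10 genes gave 0 to 4 calls in STING minus control, 0 to 5 in cGAS_YT minus cGAS, 2 to 5 in the cGAS interaction and 1 to 4 in the STING interaction. All genes gave 2043 to 4641 calls in cGAS minus control, 878 to 3105 in STING minus control, 2256 to 4851 in cGAS_YT minus cGAS, 3010 to 5277 in STING_YT minus YT, 1106 to 3248 in the cGAS interaction, 550 to 2539 in the STING interaction and 266 to 1535 in the contrast of backgrounds. The cause was not tested.

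Some uncalled differences near 0 changed sign. Median-of-ratios scaling gave 0.0053 for FN1 in cGAS minus control, -0.0066 for THBS1 in cGAS_YT minus cGAS and -0.0052 for ELN in the STING interaction, and DESeq2 gave 0.00061, -0.0051 and -0.016. This scaling moved the median of all genes by at most 0.025. With libraries left out, FBN1 in YT minus control ranged over -0.19 to 0.14. In cGAS minus control FN1 ranged over -0.14 to 0.11 and THBS1 over -0.15 to 0.057, and in STING minus control over -0.067 to 0.18 and -0.044 to 0.16. In cGAS_YT minus cGAS POSTN ranged over -0.082 to 0.051 and THBS1 over -0.052 to 0.079. In STING_YT minus STING FN1 ranged over -0.057 to 0.049, ELN over -0.15 to 0.22 and FBLN5 over -0.058 to 0.015. LOXL2 ranged over -0.16 to 0.048 in cGAS_YT minus YT, -0.091 to 0.12 in STING_YT minus YT and -0.0083 to 0.20 in the cGAS interaction, and ELN over -0.17 to 0.19 in the STING interaction. In the contrast of backgrounds SPARC ranged over -0.021 to 0.12, FBN1 over -0.10 to 0.063 and LOXL2 over -0.16 to 0.025. Counting error was at most 4.05% for any value of the 10 genes.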
